A study of Mus musculus with 20 samples.

Results

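The immunity-related GTPases and guanylate-binding proteins are interferon-induced GTPases, and 10 of their genes were followed here in mouse intestinal epithelium after loss of *Mettl3*, whose protein is the enzyme subunit that writes m6A onto RNA. The members were chosen by name: *Igtp*, *Irgm1*, *Irgm2*, *Iigp1*, *Tgtp1*, *Tgtp2*, *Ifi47*, *Gbp2*, *Gbp3* and *Gbp7*. All 10 were found by Ensembl identifier, named with GENCODE M21, among the 54838 gene entries of each deposited table. RNA-seq values were available for 12 libraries of sorted crypt cells and 8 libraries of intestinal organoids, all from C57BL/6 mice.

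In the tissue set, knockout cells came from mice with both Villin-CreERT2 and Lgr5-EGFP-IRES-CreERT2 and floxed *Mettl3* (*Mettl3*fl/fl) that were given tamoxifen for 4 days, and were taken at day 3 (1 library from Lgr5-high and 1 from Lgr5-low cells), day 4 (2 libraries from each gate) and day 6 (2 libraries with no gate in their labels). Villin-CreERT2 acts across the intestinal epithelium, and the EGFP reporter of *Lgr5*, a stem cell receptor gene, set the gates. WT cells (2 libraries from each gate) are labelled untreated, while the protocols also describe tamoxifen for *Mettl3*fl/fl mice with no Cre named, so the deletion and tamoxifen itself cannot be told apart. The organoids, with 2 libraries in each of 4 groups, are described for the retroviral groups as derived from the same Cre line. KO-AKFP organoids carried retroviral *Ascl2*, *Klf9*, *Fosb* and *Purb*, KO-AKF organoids the same without *Purb*, and both were selected with puromycin. These and the KO organoids were treated with 4-OHT for 2 days, and the WT organoids with ethanol for 2 days. The titles of the KO and WT organoids hold a tag, "m3-flag", that the labels do not explain and that the AKF and AKFP titles lack. The labels do not tell whether the 2 libraries of a group had separate sources, so p-values measure the spread between libraries, which may be technical.

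Interferon gamma signals through its receptor to transcription factors that bind GAS elements, and type I and III interferons act through a complex with STAT2 and IRF9 on ISRE elements. The immunity-related GTPases (IRG) of the mouse divide into the GMS proteins IRGM1, IRGM2 and IGTP (also called IRGM3), which act as regulators on the cell's own membranes, and the GKS proteins, among them IIGP1, TGTP1, TGTP2 and IFI47, which are loaded onto the vacuoles of parasites such as *Toxoplasma gondii*. Guanylate-binding proteins (GBP) are larger GTPases of the same defence, and both families are directed to vacuoles with the help of the ATG8 conjugation machinery of autophagy.

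The members lie in a few clusters of the GRCm38 (mm10) genome. On chromosome 11, *Irgm1* (chr11:48861968-48871683), *Tgtp1* (chr11:48985327-48994172) and *Tgtp2* (chr11:49057194-49064206) lie on the minus strand and *Ifi47* (chr11:49076587-49096974) on the plus strand, while *Igtp* (chr11:58199556-58207591) and *Irgm2* (chr11:58199618-58222782) share a locus on the plus strand farther along. *Gbp7* (chr3:142530342-142550149), *Gbp3* (chr3:142560026-142573209) and *Gbp2* (chr3:142620602-142638008) are neighbours on the plus strand of chromosome 3, and *Iigp1* lies alone on another chromosome. *Tgtp1* and *Tgtp2* are near-identical: 79.4% of the 50-base stretches in *Tgtp1* exons also occur in *Tgtp2*, and 85.8% of those in *Tgtp2* occur in *Tgtp1*, so their separate values are uncertain and their sum is given as well. Shared stretches are fewer for *Igtp* in *Irgm2* (11.8%) and *Gbp3* in *Gbp7* (3.75%). *Igtp* and *Irgm2* overlap on 1 strand, so reads could also be exchanged between them.

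Promoter windows of RefSeq (GRCm38.p6, 250 bases before to 50 after the start site) were matched for 9 of the 10 members, in 10 windows because *Gbp3* has more than 1 start. The windows are shown because both kinds of interferon element can be read from them. The GAS motif (TTCNNNGAA, its own reverse complement) was in 5 of the 10 windows, against 8.3% of all 32851 windows. The ISRE core (GAAA, any 2 bases, GAAA, on either strand) was in 8 of 10, against 3.44%, and both motifs were in 5 of 10, against 0.454%. The windows of *Igtp* and *Irgm2* share identical stretches beyond the motifs, as do those of *Tgtp1* and *Tgtp2*, so the counts are not of independent windows. In *Tgtp1*, *Tgtp2*, *Igtp* and *Irgm2* the ISRE core followed the GAS motif after a spacer of 2 bases, as these stretches on the gene's strand show, with both motifs in capitals:
*Tgtp1* (chr11:48992314-48992334, minus strand): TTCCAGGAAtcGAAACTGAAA
*Tgtp2* (chr11:49064273-49064293, minus strand): TTCCAGGAAtcGAAACCGAAA
*Igtp* (chr11:58199511-58199531, plus strand): TTCTAGGAActGAAACTGAAA
*Irgm2* (chr11:58214902-58214922, plus strand): TTCCAGGAActGAAACTGAAA

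This joint arrangement was searched for only after the matches were seen. It occurred in 5 of the 32851 windows (0.0152%), those of these 4 members and of *Gm12185*, a gene whose annotation overlaps *Tgtp1*. The windows of *Igtp* and *Tgtp2*, which hold it, are shown with those of *Irgm1*, which holds overlapping ISRE cores and no GAS match, and *Ifi47*, which holds neither. Motif matches are in capitals, 5′ to 3′ on the gene's strand:
*Igtp* (chr11:58199306-58199605, plus strand): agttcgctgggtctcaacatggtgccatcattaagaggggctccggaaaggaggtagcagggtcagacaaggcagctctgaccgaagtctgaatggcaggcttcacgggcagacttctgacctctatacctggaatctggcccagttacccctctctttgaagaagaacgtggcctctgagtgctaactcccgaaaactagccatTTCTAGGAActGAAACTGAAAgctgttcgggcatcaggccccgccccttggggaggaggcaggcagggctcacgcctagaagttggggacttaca
*Tgtp2* (chr11:49064163-49064462, minus strand): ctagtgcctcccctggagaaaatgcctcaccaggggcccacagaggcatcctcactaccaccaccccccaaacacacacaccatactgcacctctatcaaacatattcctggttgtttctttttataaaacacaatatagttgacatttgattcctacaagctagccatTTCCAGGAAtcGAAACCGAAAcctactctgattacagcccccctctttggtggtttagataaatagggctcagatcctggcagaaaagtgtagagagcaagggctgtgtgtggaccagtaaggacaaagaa
*Irgm1* (chr11:48871371-48871670, minus strand): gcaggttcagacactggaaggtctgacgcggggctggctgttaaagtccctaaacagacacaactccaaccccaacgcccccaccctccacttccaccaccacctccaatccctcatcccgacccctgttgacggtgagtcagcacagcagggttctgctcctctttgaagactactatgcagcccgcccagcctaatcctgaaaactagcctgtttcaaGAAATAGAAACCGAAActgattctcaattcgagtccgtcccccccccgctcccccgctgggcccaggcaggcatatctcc
*Ifi47* (chr11:49076337-49076636, plus strand): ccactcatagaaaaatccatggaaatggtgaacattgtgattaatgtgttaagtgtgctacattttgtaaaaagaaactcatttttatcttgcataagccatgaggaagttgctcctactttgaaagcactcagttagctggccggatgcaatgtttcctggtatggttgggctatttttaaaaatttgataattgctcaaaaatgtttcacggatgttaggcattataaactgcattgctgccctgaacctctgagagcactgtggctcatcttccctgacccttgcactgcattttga

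A match describes the letters and is no evidence of binding, and a window without one says only that the letters are not in it. Counted from the start site, the first bases of the matches lay at -106 to -24.

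**Figure D1:**
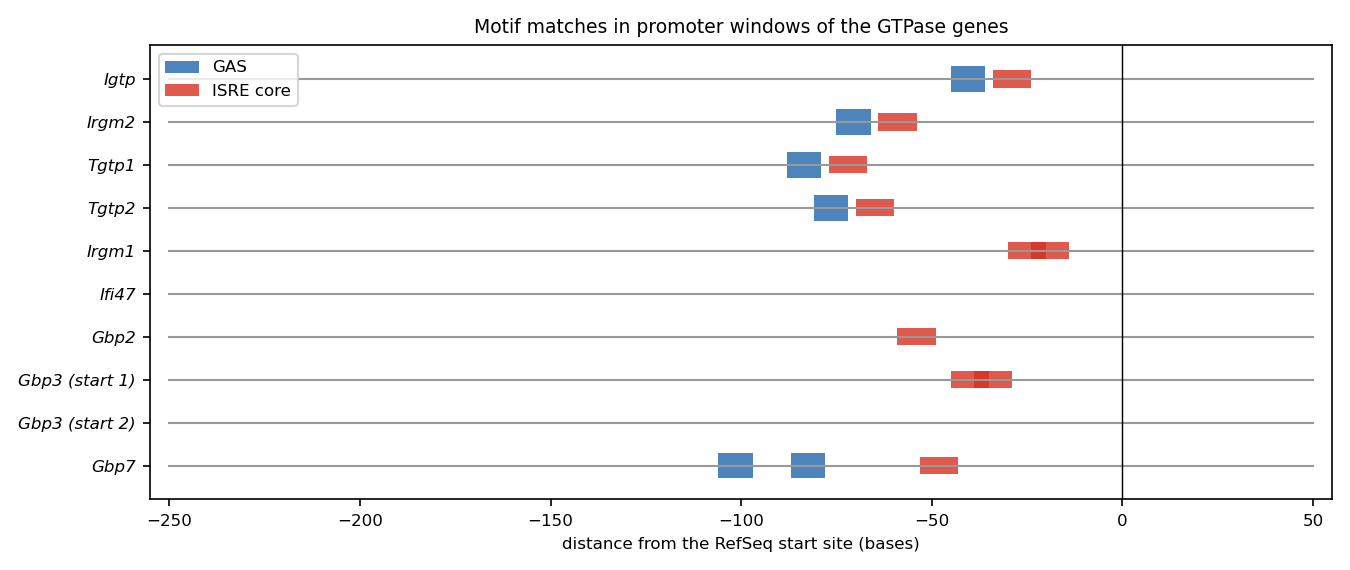
Matches to the GAS motif (blue) and the ISRE core (red) in the 300-base RefSeq promoter windows of 9 members, by distance in bases from the start site (vertical line at 0). The 4 upper windows show a GAS match followed by an ISRE core, *Gbp7* has both motifs farther apart, and *Ifi47* and the second *Gbp3* start have no match.

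Levels are given in FPKM, fragment counts scaled to transcript length and library depth, as deposited, and differences are on the log2(FPKM + 1) scale, which understates the change of low genes. The most frequent length-scaled value of single-exon genes, taken as a single fragment, gave an estimated depth of 14.9 to 25.4 (in units of 1e6 fragments) per library. The FPKM of all genes summed to 763177 in the first day 6 library and 607817 in the first day 4 Lgr5-high library, against 456654 to 534593 in the other 10 tissue libraries, and the file header of that day 6 library names a low gate that its label lacks. Epithelial markers were high throughout (*Epcam* 381 to 563 FPKM in tissue and 353 to 455 FPKM in organoids). *Lgr5* was at 10.1 and 10.4 FPKM in WT Lgr5-high cells and 0.715 and 0.974 FPKM in WT Lgr5-low cells. *Mettl3* was at 2.75 to 4.99 FPKM in knockout tissue, against 3.42 to 4.86 FPKM in WT tissue. In the 6 knockout organoid libraries it was at 3.33 to 4.22 FPKM, against 3.23 and 3.56 FPKM in WT organoids. A value per gene cannot show the removal of an exon, so it does not check the deletion.

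In WT crypt cells the GTPases were expressed at low levels, with no difference past the test between the gates. *Ifi47* was the highest member in each of the 4 WT libraries, at 7.83 and 9.42 FPKM in Lgr5-high and 8.78 and 7.89 FPKM in Lgr5-low cells. *Irgm1* followed at 5.78 to 7.07 FPKM, then *Igtp* at 2.39 to 6.09 FPKM, whose range overlapped that of *Irgm1*, and *Irgm2* at 1.53 to 2.69 FPKM. The other 6 members were at 0.120 to 2.04 FPKM, with overlapping ranges. No member passed the test between WT Lgr5-high and WT Lgr5-low cells (limma, 0 members with an adjusted p under 0.05, against 1.20% of the 12899 tested genes). No member reached an unadjusted p under 0.05 there either, against 1758 of all genes. In bulk libraries, fewer cells that express a gene and less RNA per cell cannot be told apart.

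At day 3 no member reached 10 FPKM in either gate. In Lgr5-low cells all 10 members were above both WT libraries, where 42.0% of all tested genes were, and in Lgr5-high cells 8 of 10 were, against 43.4% of all genes, the exceptions being *Irgm2* and *Ifi47*. On the log2(FPKM + 1) scale the members differed from the WT mean of their gate by 0.05 to 0.57 in Lgr5-high and 0.18 to 0.76 in Lgr5-low cells. *Igtp* was at 5.43 FPKM in Lgr5-high and 8.16 FPKM in Lgr5-low knockout cells, 0.48 and 0.47 above the WT mean of its gate on the log2 scale. No member differed by 1 or more on that scale, as 0.853% of genes did upward in each gate. These values depend on the pseudocount: with 0.1 in place of 1, 2 members differed by 1 or more in Lgr5-high cells (up to 1.11, *Tgtp1*) and 5 in Lgr5-low cells (up to 1.84, *Tgtp1*). With 1 library a gate, these values have no replicate check.

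**Figure D2:**
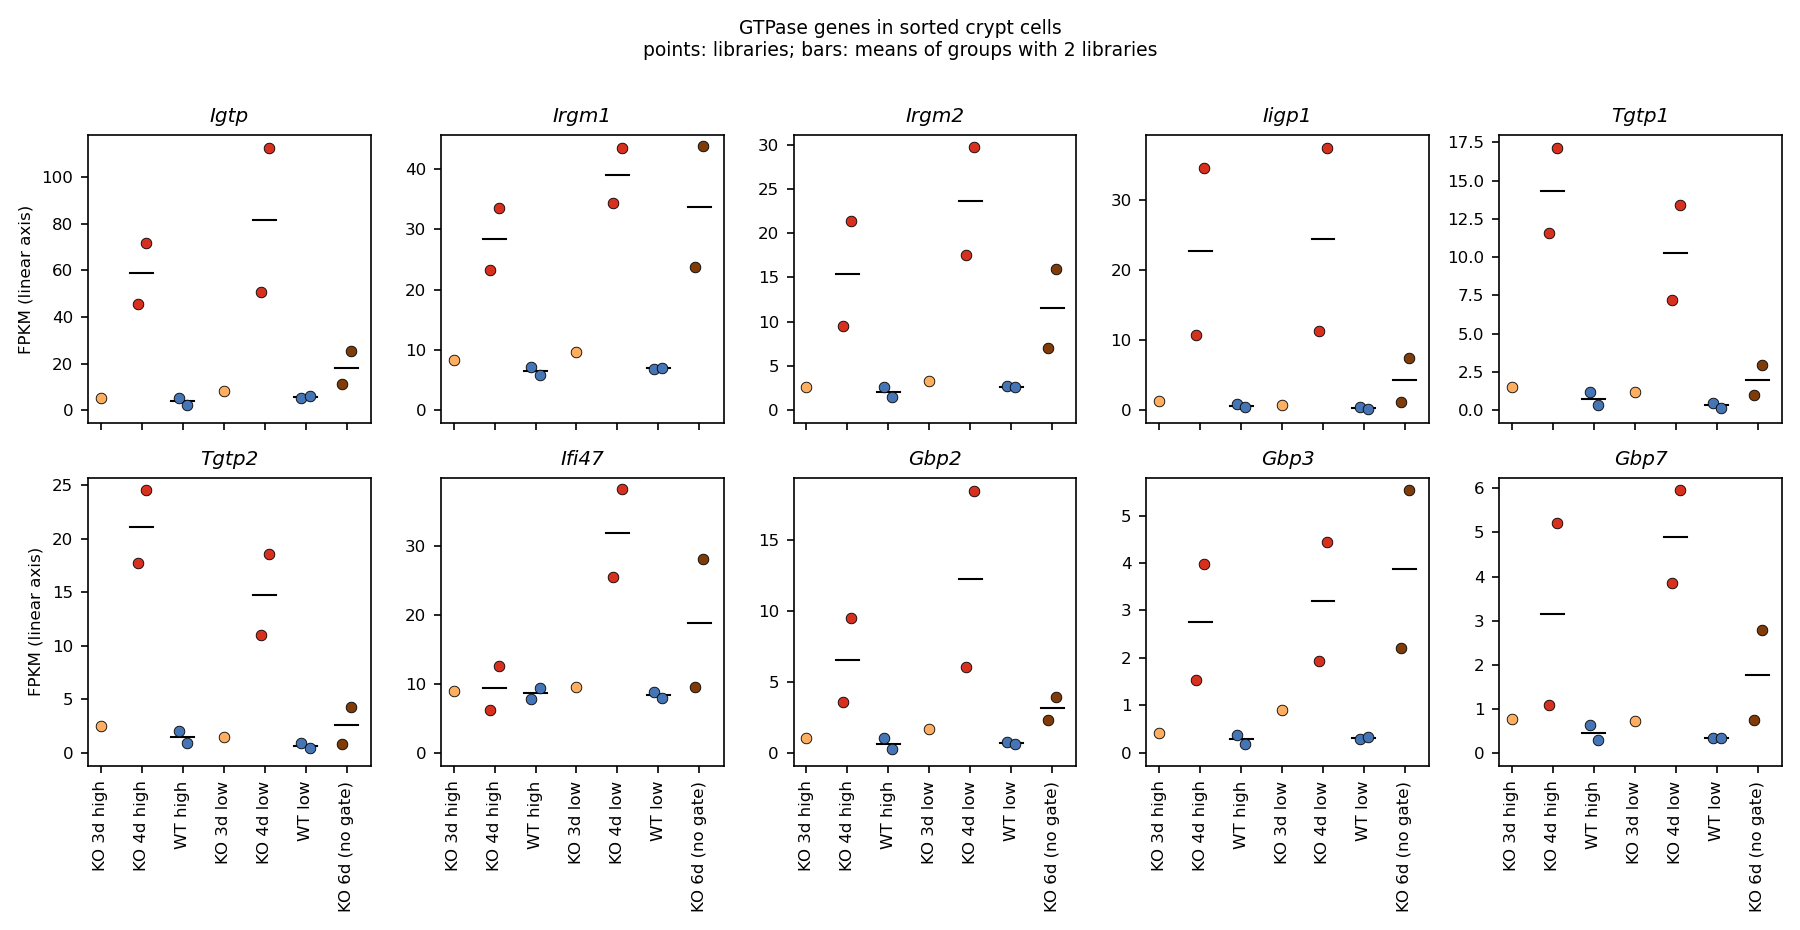
FPKM (linear vertical axis, 1 panel per gene) in each tissue library, with knockout days 3 and 4 left of WT in each Lgr5 gate and day 6, which has no gate in its labels, at the right; points are libraries and bars are means of 2. *Igtp* reaches 45.5 to 113 FPKM at day 4 against 2.39 to 6.09 FPKM in WT cells, while the Lgr5-high points of *Ifi47* overlap.

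At day 4, 4 of the 10 members passed the test as higher than WT in each gate, where 0.729% of all genes did in the high and 0.279% in the low gate. The libraries of 9 did not overlap in either gate. Of all genes, 24.9% in the high and 29.1% in the low gate lay apart with knockout higher. Among the GMS regulators, *Igtp* was at 45.5 and 71.8 FPKM in knockout Lgr5-high cells, against 5.29 and 2.39 FPKM in WT Lgr5-high cells. It was at 50.6 and 113 FPKM in knockout Lgr5-low cells, against 5.13 and 6.09 FPKM in WT Lgr5-low cells. The knockout libraries of *Igtp* lay above every WT library with a wide gap. The fitted difference was 3.66 ± 0.49 (SE) in Lgr5-high cells (limma adjusted p = 0.0183) and 3.54 ± 0.49 in Lgr5-low cells (limma adjusted p = 0.0317, n = 2 libraries a group throughout). *Irgm1* was at 23.2 and 33.6 FPKM in knockout Lgr5-high cells, against 7.07 and 5.78 FPKM in WT Lgr5-high cells. In the low gate it was at 34.4 and 43.5 FPKM in knockout cells and at 6.84 and 7.02 FPKM in WT cells. The groups did not overlap, and *Irgm1* rose by 1.97 ± 0.30 (limma adjusted p = 0.0294) in the high and 2.32 ± 0.30 (limma adjusted p = 0.0298) in the low gate. *Irgm2* was at 9.49 and 21.3 FPKM in knockout Lgr5-high cells, against 2.64 and 1.53 FPKM in WT Lgr5-high cells, and at 17.6 and 29.7 FPKM in knockout Lgr5-low cells, against 2.69 and 2.65 FPKM in WT Lgr5-low cells. Its groups did not overlap in either gate either, but its differences of 2.34 ± 0.46 and 2.70 ± 0.46 just missed the threshold (limma adjusted p = 0.0551 in the high and 0.0513 in the low gate).

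Among the GKS effectors, the summed *Tgtp1* and *Tgtp2* were at 29.3 and 41.6 FPKM in knockout Lgr5-high cells, against 3.20 and 1.27 FPKM in WT Lgr5-high cells. In the low gate the sum was 18.2 and 32.0 FPKM in knockout cells and 1.38 and 0.554 FPKM in WT cells. The sum thus stood apart from WT in both gates, with fitted rises of 3.54 ± 0.53 (limma adjusted p = 0.0271) in the high and 3.71 ± 0.53 (limma adjusted p = 0.0336) in the low gate. Taken singly, *Tgtp1* rose by 3.14 and 3.07 and *Tgtp2* by 3.18 and 3.22 in the high and low gates, all past the threshold. *Iigp1*, the best-studied vacuole-binding GKS protein, was at 10.8 and 34.6 FPKM in knockout Lgr5-high cells, against 0.867 and 0.408 FPKM in WT Lgr5-high cells. It was at 11.3 and 37.4 FPKM in knockout Lgr5-low cells, against 0.405 and 0.172 FPKM in WT Lgr5-low cells. The separation from WT was as wide as that of *Igtp*, yet the knockout libraries of a gate differed from each other by over 20 FPKM, and differences of 3.66 ± 0.75 and 4.09 ± 0.75 missed the threshold (limma adjusted p = 0.0633 and 0.0664).

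*Ifi47*, the most abundant member in WT cells, was the exception in Lgr5-high cells. It was at 6.27 and 12.6 FPKM in knockout Lgr5-high cells, against 7.83 and 9.42 FPKM in WT Lgr5-high cells, and at 25.4 and 38.3 FPKM in knockout Lgr5-low cells, against 8.78 and 7.89 FPKM in WT Lgr5-low cells. The groups overlapped in the high gate, where the difference was 0.05 ± 0.47 (limma adjusted p = 0.969) and took the other sign when libraries were scaled to equal FPKM sums (-0.073). They did not overlap in the low gate, where it was 1.79 ± 0.47 (limma adjusted p = 0.153). The knockout change in Lgr5-high cells minus that in Lgr5-low cells was -1.74 ± 0.66 for *Ifi47*, with a limma adjusted p of 0.963, so a difference between gates was not established. *Ifi47* was the 1 member with an unadjusted p under 0.05 in that test, as were 223 of all genes, and 0.0155% of genes passed it after adjustment.

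None of the 3 guanylate-binding protein genes passed the test at day 4. *Gbp2*, the most abundant of the 3 at day 4, was at 3.54 and 9.49 FPKM in knockout Lgr5-high cells, against 1.05 and 0.264 FPKM in WT Lgr5-high cells, and at 6.01 and 18.4 FPKM in knockout Lgr5-low cells, against 0.769 and 0.600 FPKM in WT Lgr5-low cells. *Gbp3* reached 1.53 to 4.44 FPKM in the 4 day 4 libraries, against 0.181 to 0.385 FPKM in the 4 WT libraries. *Gbp7* reached 1.08 to 5.96 FPKM at day 4, against 0.284 to 0.636 FPKM in WT cells. For all 3 genes the knockout libraries lay above the WT libraries of their gate, and differences were 1.31 to 2.1 in the high gate (limma adjusted p = 0.107 to 0.242) and 1.60 to 2.79 in the low gate (limma adjusted p = 0.0721 to 0.167).

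In all, 4 of the 10 members rose in Lgr5-high cells at day 4 and the same 4 in Lgr5-low cells (*Igtp*, *Irgm1*, *Tgtp1*, *Tgtp2*), where 0.729% and 0.279% of the 12899 tested genes rose. *Tgtp1* and *Tgtp2* are near-identical and can share reads, so their calls are not separate results. Libraries did not overlap, with knockout higher, for 9 of 10 members in the high gate (24.9% of all genes) and 10 of 10 in the low gate (29.1%). All 10 members passed the filter on low values, but 6 of them passed only through knockout libraries and so had to differ. On WT libraries alone only *Igtp*, *Irgm1*, *Irgm2* and *Ifi47* would have passed. The calls also rest on the settings: without the filter, and with only the compared groups fitted, 0 members were called in either gate, and with equal FPKM sums 3 in the high and 0 in the low gate. The calls in the low gate rest on every library: they were lost with any 1 of its 4 libraries left out, as were most calls over all genes. In the high gate, calls of members were lost on leaving out either WT library or the first knockout library, and remained on leaving out the second knockout library.

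In both day 4 groups and at day 6, all 10 members were higher in the second library than in the first. The same held for 64.1% of all tested genes at day 4 in the high gate, 42.5% in the low gate and 74.6% at day 6. In WT Lgr5-high cells 9 of 10 members were higher in the first library. Their summed level was 131 and 234 FPKM in knockout Lgr5-high cells, against 29.0 and 21.5 FPKM in WT Lgr5-high cells, and 169 and 322 FPKM in knockout Lgr5-low cells, against 26.6 and 25.7 FPKM in WT Lgr5-low cells. *Igtp* replaced *Ifi47* as the highest member at day 4 and made up 29.9% to 34.9% of the sum, against 11.1% to 23.7% in WT cells. Over the 12 tissue libraries each member's log2 level correlated with the mean of the other 9 at Pearson r = 0.874 to 0.981, except *Ifi47* at 0.687; the libraries share groups, so these values carry no p.

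Markers of other cells moved in some of these libraries. The 17 markers of immune cells, a source of interferon gamma, summed to 9.92 and 19.3 FPKM in knockout Lgr5-high cells at day 4, against 12.6 and 8.09 FPKM in WT Lgr5-high cells. In the low gate the sum was 9.95 and 36.2 FPKM in knockout cells and 23.8 and 11.6 FPKM in WT cells. The pan-leukocyte gene *Ptprc* was at most 0.298 FPKM and the T cell gene *Cd3e* at most 0.385 FPKM in tissue, both highest in the second knockout Lgr5-low library, and the granzyme gene *Gzma* reached 14.9 FPKM there. That library was also the one with the highest *Igtp*. The first knockout library of the same gate had 50.6 FPKM of *Igtp*, with a marker sum below both WT libraries of its gate. Only 5 of the 17 immune markers passed the filter on low values. Stromal and endothelial markers summed to at most 3.84 FPKM. Among enteroendocrine markers 4 of 5 passed the test as higher in the high gate at day 4, and their sum was 582 and 1136 FPKM in knockout cells, against 160 and 61.5 FPKM in WT cells. In the low gate 0 of 5 passed, with sums of 1040 and 1553 FPKM in knockout cells, against 503 and 318 FPKM in WT cells. In both gates the knockout libraries lay above WT for 5 of 5 enteroendocrine, 3 of 3 tested tuft, 3 of 5 Paneth and 3 of 5 goblet markers. Of all genes, 24.9% did so in the high and 29.1% in the low gate. Goblet markers (1 of 5 rose) summed to 2771 and 3695 FPKM in knockout Lgr5-high cells, against 1107 and 771 FPKM in WT Lgr5-high cells. In WT Lgr5-low cells goblet markers summed to 4064 and 3324 FPKM. The part of other cell types in the result was not tested.

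**Figure D3:**
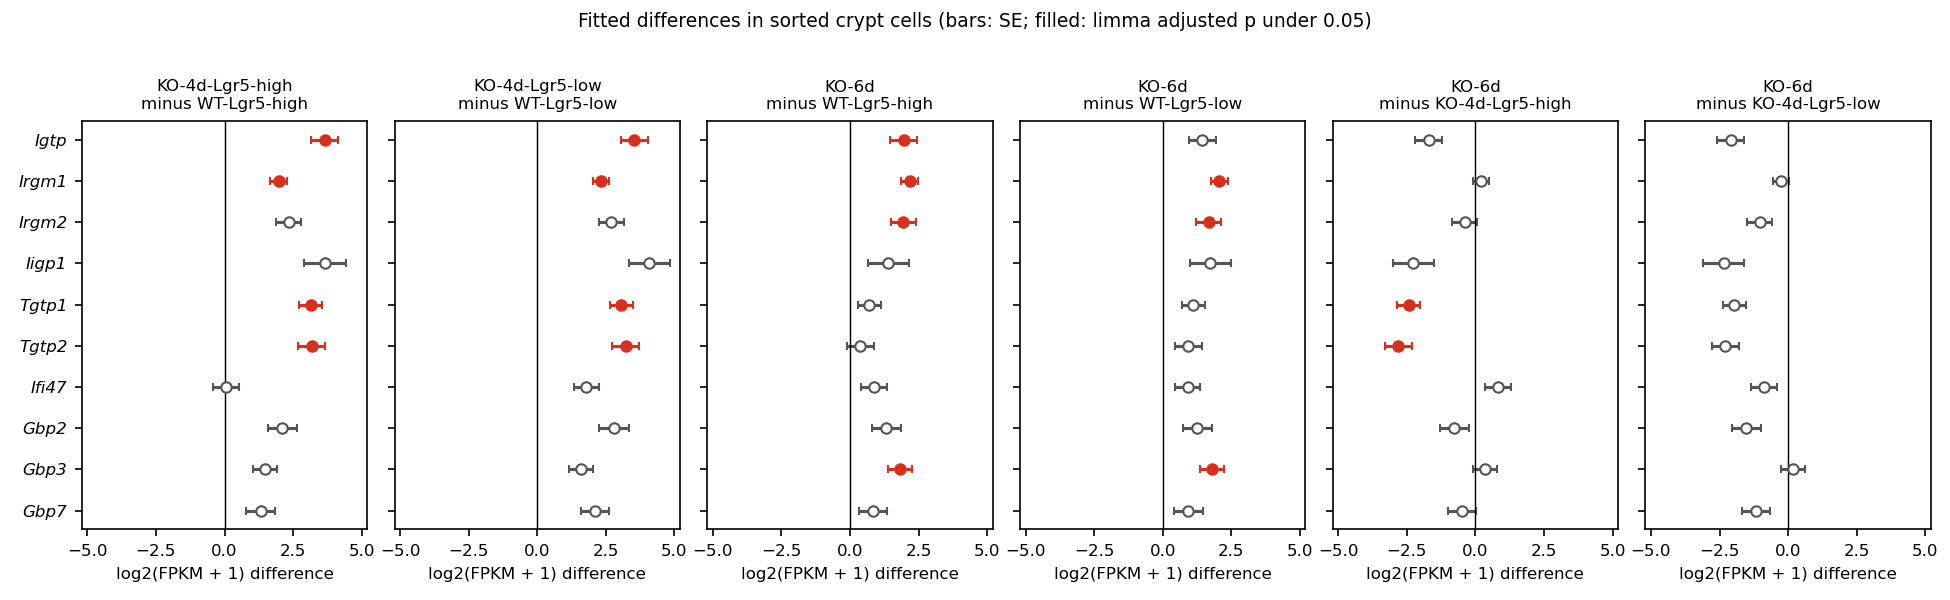
Fitted differences on the log2(FPKM + 1) scale with their SE for the 10 members in 6 tissue comparisons; filled red points have a limma adjusted p under 0.05. The first 4 panels lie at or right of 0, and in the KO-6d minus KO-4d panels *Tgtp1* and *Tgtp2* lie left while *Irgm1* and *Gbp3* stay near 0.

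At day 6, 4 members stood above WT Lgr5-high cells by the test and the *Tgtp* genes did not. The GMS member *Irgm1* was the highest, at 23.7 and 43.7 FPKM, and *Gbp3* reached its highest tissue value of 5.53 FPKM, with 2.21 FPKM in the other library. *Igtp* was at 11.3 and 25.2 FPKM and *Irgm2* at 7.04 and 16.0 FPKM. These 4 lay above every WT library of either gate. Over the family, day 6 libraries lay above WT Lgr5-high libraries for 8 of 10 members (27.5% of all genes) and above WT Lgr5-low libraries for 9 of 10 (26.1%). *Irgm1* was 2.17 ± 0.30 above WT Lgr5-high cells (limma adjusted p = 0.00275) and 2.07 ± 0.30 above WT Lgr5-low cells (limma adjusted p = 0.0049). *Gbp3* was 1.84 ± 0.44 (limma adjusted p = 0.0202) and 1.79 ± 0.44 (limma adjusted p = 0.0333) above them, and *Irgm2* 1.95 ± 0.46 (limma adjusted p = 0.019) and 1.67 ± 0.46 (limma adjusted p = 0.0487). *Igtp* was 1.96 ± 0.49 above WT Lgr5-high cells (limma adjusted p = 0.0239), but its difference of 1.45 ± 0.49 from WT Lgr5-low cells did not pass (limma adjusted p = 0.0953). Thus 4 members rose against WT Lgr5-high cells, where 10.1% of all genes rose, and 3 against WT Lgr5-low cells, where 6.22% rose. *Gbp3*, counted in both, reached 1 FPKM in 0 of 4 WT libraries. It passed the filter only through knockout libraries and so had to differ.

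The *Tgtp* genes no longer passed the test against WT. Their sum was 1.82 and 7.25 FPKM at day 6, against 29.3 and 41.6 FPKM in knockout Lgr5-high cells at day 4. The first day 6 library lay within the WT range of 0.554 to 3.20 FPKM and the second above it. The sum differed by 0.64 from WT Lgr5-high and by 1.33 from WT Lgr5-low cells (limma adjusted p = 0.407 and 0.148). Relative to day 4 Lgr5-high cells, *Tgtp1* fell (-2.43 ± 0.42, limma adjusted p = 0.0282), as did *Tgtp2* (-2.81 ± 0.49, limma adjusted p = 0.0286) and their sum (-2.9 ± 0.53, limma adjusted p = 0.0318). No other member passed as lower there, where 1.23% of all genes were. *Iigp1* was at 1.14 and 7.50 FPKM at day 6, below all 4 day 4 libraries, with differences of -2.26 and -2.35 from the high and low gates that did not pass (limma adjusted p = 0.123 and 0.394). *Igtp* was likewise below all 4 day 4 libraries (-1.70 and -2.09, limma adjusted p = 0.0892 and 0.206), as 30.4% of all genes were relative to the high and 20.3% relative to the low gate. *Irgm1* (0.20 ± 0.30) and *Gbp3* (0.37 ± 0.44) had no detectable difference from day 4 Lgr5-high cells. The sign of *Irgm1* changed with equal FPKM sums, and the signs of both changed when 1 library was left out.

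Against day 4 Lgr5-low cells, limma called 0 members at day 6 and 0.0543% of all genes, while 6 members and 1069 genes had an unadjusted p under 0.05. The *Tgtp* calls against day 4 Lgr5-high cells did not hold without the first day 6 library or without the first day 4 library (0 called). Marker levels at day 6 differed from those of WT Lgr5-high cells. Crypt stem cell markers, 5 of 5 of which fell against WT Lgr5-high cells, summed to 93.1 and 421 FPKM at day 6, against 3023 and 3230 FPKM in WT Lgr5-high and 591 and 529 FPKM in WT Lgr5-low cells. Against WT Lgr5-high cells, 5 of 5 enteroendocrine, 4 of 5 goblet and 5 of 7 enterocyte markers rose; against WT Lgr5-low cells none of those 17 did. Paneth markers summed to 107200 FPKM in the first day 6 library and 42958 FPKM in the second, against 26293 to 35896 FPKM in WT cells. Their part in the day 6 values was not tested. Against WT Lgr5-high cells, 4 members were called without the first day 6 library, 1 without the second, 2 without WT library 1 and 1 without WT library 2. Against WT Lgr5-low cells, 2 were called without the first day 6 library and 1 without any of the others.

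Other genes of the families and pathways were taken from lists of pathway genes. Of the 18 other IRG, GBP and Mx genes 6 were tested, and 1 of them rose at day 4 in each gate. That gene was *Gm12250*, which lies outside the members, at 16.3 and 28.3 FPKM in knockout Lgr5-high cells, against 2.6 and 1.90 FPKM in WT Lgr5-high cells. In Lgr5-low cells it was at 21.8 and 42.8 FPKM in the knockout and 2.65 and 3.05 FPKM in WT. It thus followed the members, with rises of 2.80 ± 0.47 (limma adjusted p = 0.0372) and 3.04 ± 0.47 (limma adjusted p = 0.0432). At day 6 it was still higher than in WT cells of both gates, as were *Mx1* and *Mx2*, dynamin-like antiviral GTPases that respond to type I and III interferons. *Mx1* was at 3.76 and 6.00 FPKM at day 6, against 0.291 and 0.768 FPKM in day 4 Lgr5-high cells, and rose between them by 1.93 ± 0.31 (limma adjusted p = 0.0235), the opposite direction to the *Tgtp* genes.

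Of the 16 genes of the interferon gamma list 14 were tested, and at day 4 the chemokine gene *Cxcl10* alone passed, as higher in Lgr5-high cells (2.14 ± 0.37, limma adjusted p = 0.0393). Day 4 knockout libraries lay above WT for 6 of the 14 in the high and 8 in the low gate, where 24.9% and 29.1% of all genes did, and for 5 in both (*Socs1*, *Nlrc5*, *Cxcl9*, *Cxcl10* and *Ido1*). *Socs1*, a feedback inhibitor of the pathway, was at 2.27 to 3.34 FPKM in the 4 day 4 libraries, against 0.701 to 1.10 FPKM in the 4 WT libraries (limma adjusted p = 0.0787 in the high and 0.123 in the low gate). *Ido1*, which encodes a tryptophan-degrading enzyme, was at 0.871 and 19.4 FPKM in knockout Lgr5-high cells, against 0.190 and 0.0304 FPKM in WT Lgr5-high cells, and at 7.65 and 69.0 FPKM in knockout Lgr5-low cells, against 2.75 and 1.80 FPKM in WT Lgr5-low cells (limma adjusted p = 0.308 and 0.302). As for the members, the second knockout library was the higher of each gate for both genes. At day 6 *Cxcl10* (2.45) and *Cxcl11* (1.64) rose against WT Lgr5-high cells, 2 of 14 where 10.1% of all genes rose. Against WT Lgr5-low cells *Cxcl10* rose (2.22), 1 of 14 where 6.22% of all genes rose, and *Irf8* fell (-1.39). *Irf1*, an interferon-induced transcription factor gene, was at 31.9 and 19.4 FPKM in knockout Lgr5-high cells, against 31.5 and 14.0 FPKM in WT Lgr5-high cells, so the groups overlapped. The receptor genes *Ifngr1* (12.8 to 40.0 FPKM) and *Ifngr2* (19.9 to 30.5 FPKM) were expressed in every tissue library. *Ifng* itself was listed at 0 in 9 of 12 tissue libraries and at 0.121, 0.103 and 0.0930 FPKM in the day 3 Lgr5-low, second day 4 Lgr5-low and second day 6 libraries, and at 0 in all 8 organoid libraries.

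Of the 13 type I and III interferon genes 10 were tested. At day 4 only *Irf7*, a transcription factor gene of that response, rose, in Lgr5-high cells (1.38 ± 0.25, limma adjusted p = 0.0447). At day 6, 5 of the 10 rose against WT Lgr5-high cells, where 10.1% of all genes did, and 4 against WT Lgr5-low cells, where 6.22% did. They were led by *Irf7* (2.88 and 1.98) and *Usp18*, an inhibitor of type I signalling (3.07 and 2.38). *Irf7* was higher at day 6, at 18.6 and 18.7 FPKM, than in day 4 Lgr5-high cells, at 6.16 and 5.74 FPKM (1.5 ± 0.25, limma adjusted p = 0.0265). Of the 10 ATG8 conjugation genes, all tested, 0 passed at day 4 in either gate, where the unadjusted p was under 0.05 for 2182 and 1768 of all genes. Only *Gabarapl1* rose at day 6 (1.11 ± 0.20 against WT Lgr5-low cells, limma adjusted p = 0.00964).

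Among the genes whose log2 levels followed the mean of the members most closely over the 12 tissue libraries were *Dcbld1* (Pearson r = 0.933), *Vim* (0.932), *Alyref2* (0.920), *Tap1* (0.914), *H2-Q7* (0.913), *Kcnk16* (0.910) and *Parp10* (0.903). Over the 8 organoid libraries *Parp10* (0.979) and *Tap1* (0.948) were again close, *Vim* was at 0.879, *Kcnk16* and *H2-Q7* at 0.703 and 0.700, and *Dcbld1* (0.548) and *Alyref2* (0.375) were not. The points share libraries and groups, so the values are descriptions.

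**Figure D4:**
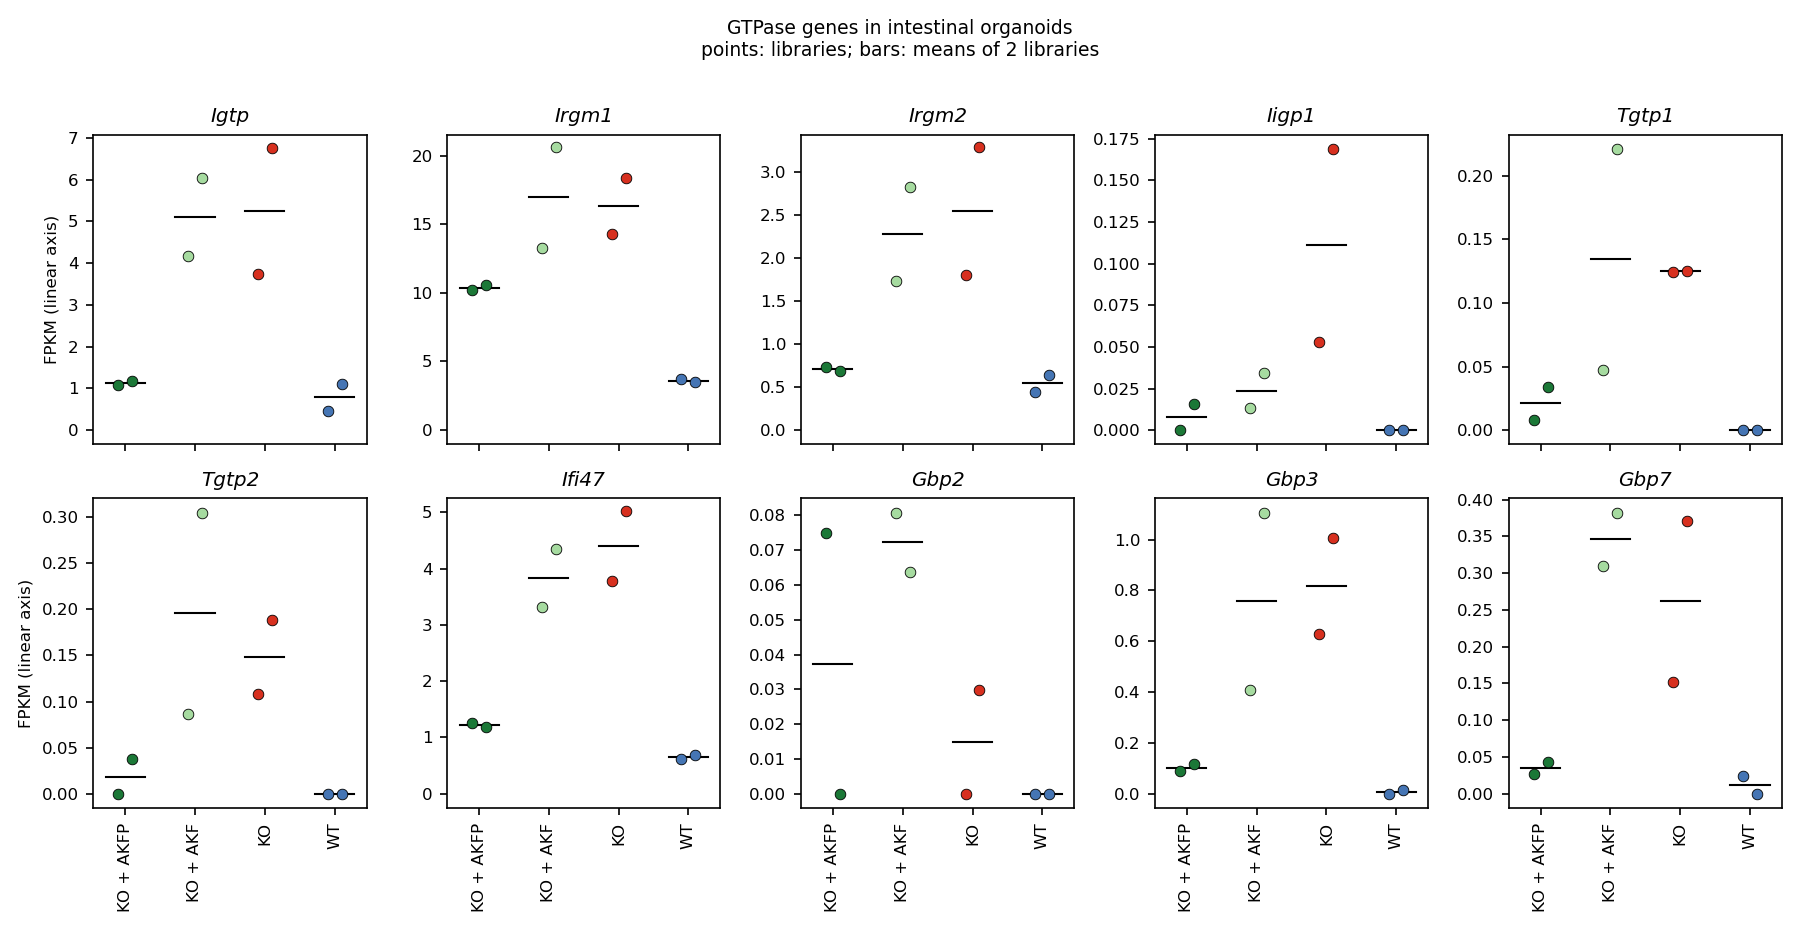
FPKM (linear vertical axis, 1 panel per gene) in each organoid library, with KO-AKFP, KO-AKF, KO and WT from left to right; points are libraries and bars are means of 2. *Irgm1* lies at 14.3 and 18.3 FPKM in KO and at 3.75 and 3.47 FPKM in WT organoids, and several panels lie wholly below 1 FPKM.

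In organoids, which hold epithelium without the immune cells of the tissue, part of the family was barely expressed: *Iigp1*, *Tgtp1*, *Tgtp2*, *Gbp2* and *Gbp7* stayed below 1 FPKM in all 8 libraries and were not tested. *Irgm1* was the highest member in every library. The GMS gene *Irgm1* was at 14.3 and 18.3 FPKM in KO organoids, against 3.75 and 3.47 FPKM in WT organoids. *Igtp* was at 3.73 and 6.76 FPKM in KO organoids, against 0.461 and 1.10 FPKM in WT organoids. *Irgm2* was at 1.80 and 3.29 FPKM in KO organoids, against 0.439 and 0.645 FPKM in WT organoids. None of the 3 overlapped between the groups, as 36.6% of all genes did not with KO higher, and all rose: *Irgm1* by 1.90 ± 0.20 (limma adjusted p = 0.00122), *Igtp* by 1.79 ± 0.28 (limma adjusted p = 0.00494) and *Irgm2* by 1.17 ± 0.23 (limma adjusted p = 0.0122).

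*Ifi47* was at 3.79 and 5.03 FPKM in KO organoids, against 0.624 and 0.683 FPKM in WT organoids, and *Gbp3* at 0.629 and 1.01 FPKM in KO organoids, against 0 and 0.0143 FPKM in WT organoids. Both groups of libraries lay apart, and *Ifi47* rose by 1.70 ± 0.15 (limma adjusted p = 0.000686) and *Gbp3* by 0.84 ± 0.21 (limma adjusted p = 0.0242). All 5 tested members thus rose, where 16.7% of the 12657 tested genes did, but only *Irgm1* would have passed the filter on WT organoids alone. Of the 5 untested members, *Iigp1*, *Tgtp1* and *Tgtp2* were listed at 0 in both WT libraries and at 0.0530 to 0.188 FPKM in KO organoids. *Gbp7* was at 0.152 and 0.371 FPKM in KO organoids, against 0.0245 and 0 FPKM in WT organoids, and *Gbp2* was at no more than 0.0299 FPKM in either. Of 17 immune markers 11 or 12 were listed at 0 in each organoid library, *Ptprc* and *Ifng* in all 8, and 1 of the 2 tested, the lysosomal gene *Cd68*, rose (1.16). Markers of epithelial types moved too, with 5 of 5 goblet, 4 of 5 enteroendocrine and 3 of 5 Paneth markers higher in KO than in WT organoids, and 4 of 7 enterocyte and 3 of 5 crypt stem cell markers lower; their part in the rise was not tested. Without the first WT library, and without the second KO library, 3 members were called.

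Adding *Ascl2*, *Klf9* and *Fosb* went with no detectable difference in the GTPases from the knockout, while the set with *Purb* went with lower levels. KO-AKF organoids overlapped KO organoids in all 5 tested members, where 13.9% and 15.7% of all genes lay apart upward and downward, and with differences of -0.16 to 0.032, 0 were called (limma, 0.0474% of all genes called either way, 582 genes and 0 members at an unadjusted p under 0.05). The largest SE among those differences was 0.28. With only 6 of the 12657 tested genes called, the adjusted threshold was strict, so changes of 1 or more on the log2 scale could also have been missed. *Igtp* was at 1.08 and 1.17 FPKM in KO-AKFP organoids, against 4.17 and 6.04 FPKM in KO-AKF and 3.73 and 6.76 FPKM in KO organoids. *Ifi47* was at 1.25 and 1.19 FPKM in KO-AKFP organoids, against 3.32 and 4.34 FPKM in KO-AKF and 3.79 and 5.03 FPKM in KO organoids. The KO-AKFP libraries of both genes lay close together and below all 4 others, as did those of 31.6% of all genes relative to KO and 28.6% relative to KO-AKF organoids.

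Relative to KO organoids, KO-AKFP organoids were lower in *Ifi47* (-1.27 ± 0.15, limma adjusted p = 0.00248), *Igtp* (-1.51 ± 0.28, limma adjusted p = 0.0119), *Irgm2* (-1.02 ± 0.23, limma adjusted p = 0.0224) and *Gbp3* (-0.71 ± 0.21, limma adjusted p = 0.0442), 4 of 5 tested members where 13.2% of all genes fell. *Irgm1* missed the threshold, at 10.2 and 10.6 FPKM in KO-AKFP, against 13.3 and 20.7 FPKM in KO-AKF and 14.3 and 18.3 FPKM in KO organoids (-0.60 ± 0.20 from KO, limma adjusted p = 0.0629). Relative to KO-AKF organoids, *Ifi47* (-1.11), *Igtp* (-1.51) and *Irgm2* (-0.92) were lower, 3 of 5 where 12.7% of all genes fell. *Irgm2* and *Gbp3* reached 1 FPKM in KO and KO-AKF libraries only. Both thus passed the filter through the groups in which they were higher, which favoured their being counted as lower in KO-AKFP organoids. With either KO-AKFP library left out, 1 member was called in each of these comparisons. Relative to KO organoids without the second KO library 2 were called, and relative to KO-AKF organoids without its first library 5. The comparisons with KO and with KO-AKF organoids share the KO-AKFP libraries.

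Relative to WT organoids, only *Irgm1* passed the test as higher in KO-AKFP organoids (1.3 ± 0.20, limma adjusted p = 0.00247), where 24.6% of all genes did. The differences of the other 4 tested members were 0.13 to 0.43 (limma adjusted p = 0.053 for *Ifi47* and 0.453 to 0.64 for *Igtp*, *Irgm2* and *Gbp3*), and their levels in KO-AKFP organoids cannot be called equal to WT from a missed threshold. *Ifi47* was at 1.25 and 1.19 FPKM in KO-AKFP organoids, against 0.624 and 0.683 FPKM in WT organoids. The KO-AKFP libraries of *Irgm2* and *Gbp3* also lay above both WT libraries, while those of *Igtp* overlapped them. In KO-AKFP against KO organoids, 5 of 5 enteroendocrine and 3 of 7 enterocyte markers fell, and 4 of 5 Paneth and 2 of 5 crypt stem cell markers rose. Their part was not tested, and the unexplained tag and the puromycin selection cannot be told apart from the factors in comparisons with KO and WT organoids.

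Interferon pathway genes also changed in organoids. Of the 16 interferon gamma genes 10 were tested. In KO over WT organoids 4 rose (*Ifngr1*, *Irf1*, *Socs1*, *Cxcl10*), where 16.7% of all genes did, and *Irf8* fell. In KO-AKFP relative to KO organoids *Irf1*, *Socs1* and *Socs3* fell, where 13.2% of all genes did, and *Jak1* rose. Of all 12657 tested genes, 3570 were called in either direction between KO and WT and 3337 between KO-AKFP and KO organoids. *Cxcl10* was not among those that fell, at 3.23 and 3.36 FPKM in KO-AKFP and 2.63 and 4.22 FPKM in KO organoids.

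Of the 10 tested type I and III genes, 5 rose in KO over WT organoids (*Stat2*, *Irf9*, *Irf3*, *Irf7*, *Usp18*), where 16.7% of all genes did. In KO-AKFP relative to KO organoids *Irf7*, *Usp18* and *Stat2* fell, where 13.2% of all genes did, and *Ifnar1* rose. *Irf7* was at 3.74 and 3.37 FPKM in KO-AKFP, 20.6 and 26 FPKM in KO-AKF, 20.9 and 24.9 FPKM in KO and 2.07 and 2.56 FPKM in WT organoids. Its step between KO and WT, 2.85 ± 0.14 (limma adjusted p = 0.00022), exceeded that of every tested GTPase in value. *Mx1* and *Mx2*, the 2 of 3 tested genes among the other GTPases that rose in KO over WT organoids (1.11 and 1.68), fell in KO-AKFP relative to KO organoids (-0.92 and -1.45). *Gm12250* was at 0.221 and 0.462 FPKM in KO-AKFP, 0.483 and 0.910 FPKM in KO-AKF and 0.786 and 1.52 FPKM in KO organoids, was listed at 0 in WT organoids, and was not tested. Of the 10 ATG8 conjugation genes, *Atg3* (-0.29) and *Atg5* (-0.24) fell in KO relative to WT organoids. In that comparison 3570 of the 12657 tested genes were called, 2109 of them as higher.

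**Figure D5:**
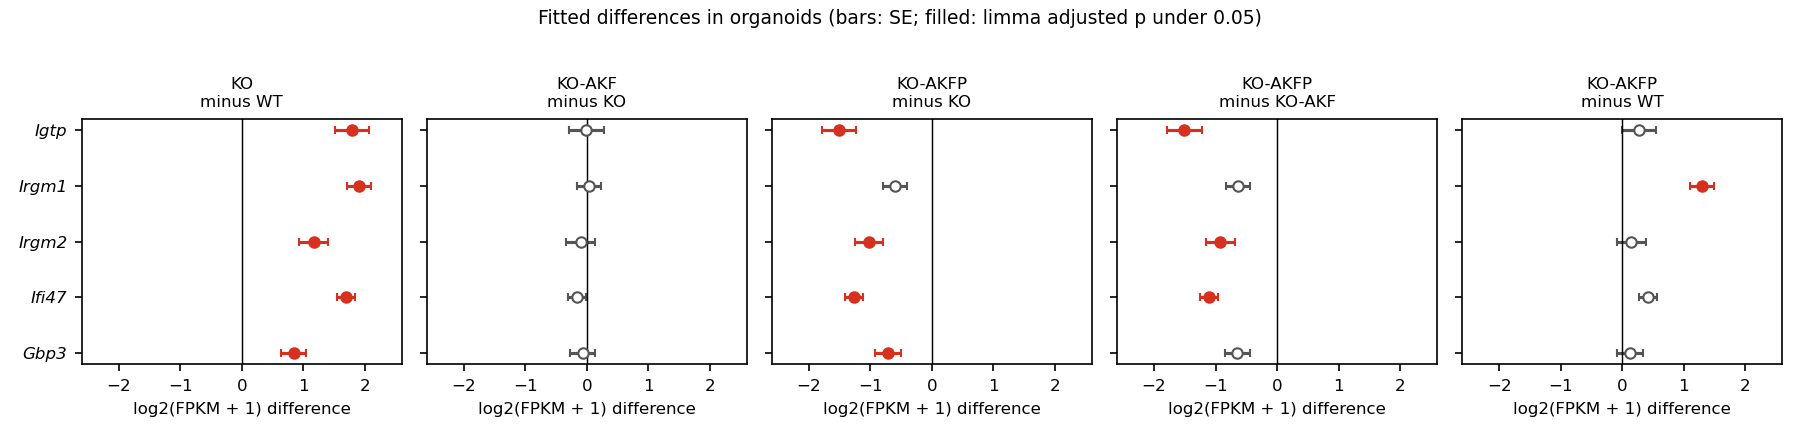
Fitted differences on the log2(FPKM + 1) scale with their SE for the 5 members tested in organoids, in 5 comparisons; filled red points have a limma adjusted p under 0.05. All 5 lie right of 0 in KO minus WT, none is called in KO-AKF minus KO, and *Irgm1* alone is called in KO-AKFP minus WT.

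The family differed between tissue and organoids in level and make-up, which is given side by side because the sets came as separate tables. Summed over the 10 members, KO-AKFP organoids held 13.4 and 13.9 FPKM, KO-AKF organoids 23.5 and 36.0 FPKM, KO organoids 24.7 and 35.3 FPKM and WT organoids 5.30 and 5.91 FPKM, while day 4 knockout tissue held 131 to 322 FPKM and WT tissue 21.5 to 29.0 FPKM. *Irgm1* made up 52.0% and 57.9% of the sum in KO and 58.7% and 70.8% in WT organoids, against 13.5% to 20.3% at day 4 and 24.4% to 27.4% in WT tissue. The *Tgtp* sum was at most 0.526 FPKM in any organoid library, in KO-AKF organoids.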

How the data were processed

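Total RNA was prepared as NEBNext Ultra libraries, per the labels' protocols. The authors deposited FPKM per gene, per the file headers; the organoid table's header names no unit, and its values have the format and range of the other files. The submitters' processing notes name HISAT2 2.1.0, StringTie 1.3.3b and build mm10; whether counting used strand is not given in the sources used here. Depth was estimated from the most frequent lowest value of single-exon genes.

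Groups follow the labels. From the deposited FPKM, log2(FPKM + 1) was computed and fitted with limma 3.58.1 (R 4.3.3; lmFit, eBayes with trend, 1 mean per group) over 10 tissue libraries (the 5 groups that have 2) and separately over the 8 organoid libraries. Genes reaching 1 FPKM in at least 2 libraries were tested (12899 and 12657), two-sided, with Benjamini-Hochberg adjustment over all of them and a threshold of 0.05. Day 3 was left out of the fits. The fit was tested on simulated data. Alternatives were a pseudocount of 0.1, no filter, equal FPKM sums, median-of-ratios scaling, only the compared groups in the fit, summed *Tgtp* genes, the replicate number as a block and each library left out. Python 3.11.15 with pandas 2.3.3 searched RefSeq promoters.

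All members are named. Other genes are named where they pass in a listed pathway (up to 4 a list and comparison by smallest p; further ones were named after their values were seen), as *Irf1*, *Ifng*, *Ifngr1*, *Ifngr2* and *Mettl3*, or as most alike in pattern. One gene that this rule names is not reported here. The members and lists were chosen with earlier results of these data known. Protein sequences were not analysed here.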

Additional observations from a re-analysis of the deposited data

How the results depend on the processing

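Members called moved with the settings as follows (as reported, then the alternative). Without the filter on low values 0 were called at day 4 against WT in the high and low gates (4 each as reported), 1 at day 6 against WT Lgr5-high (4) and 1 against WT Lgr5-low (3), 0 at day 6 against day 4 Lgr5-high (2) and 2 in KO-AKFP against KO organoids (4). With only the compared groups fitted, 0 were called in both day 4 comparisons and at day 6 against day 4 Lgr5-high, and 2 in KO-AKFP against WT organoids (1). Equal FPKM sums gave 0 at day 4 in the low gate, 2 at day 6 against WT Lgr5-high and 1 against WT Lgr5-low. That scaling moved the median of all genes at day 6 against WT Lgr5-high to -0.46 (-0.16 as reported). A pseudocount of 0.1 gave 0 at day 6 against day 4 Lgr5-high and 2 in KO-AKFP against WT organoids, and summing the *Tgtp* genes gave 1 at day 6 against day 4 Lgr5-high. The cause was not tested. The *Tgtp* sum kept its direction but missed the threshold without the filter (3.54 and 3.71 at day 4 in the high and low gates, -2.9 at day 6 against day 4 Lgr5-high), with only the compared groups (the same values), with equal sums (3.71 at day 4 in the low gate, -3.04 at day 6 against day 4 Lgr5-high) and with the pseudocount of 0.1 (-3.22 there).

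With the replicate number as a block, 6 members were called at day 4 in the high gate, 7 in the low gate, 5 in KO-AKFP against KO-AKF and 2 in KO-AKFP against WT organoids. Deviations of same-numbered libraries correlated at 0.0560 in day 4 and WT Lgr5-high and 0.199 in day 4 and WT Lgr5-low libraries. Over all pairs of groups the range was 0.0243 to 0.520 in tissue, with 0.339 between the day 4 gates and 0.439 between the WT gates, and -0.039 to 0.091 in organoids. The labels name no shared source, so the number was not taken to pair knockout with WT libraries; whether same-numbered libraries of the 2 gates came from the same mice is not given in the labels.

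Leaving out each library in turn gave 0 to 4 members at day 4 in the high gate, 0 in the low gate, 1 to 4 and 1 to 2 at day 6 against WT Lgr5-high and WT Lgr5-low, 0 to 2 and 0 to 1 against day 4 Lgr5-high and Lgr5-low, 3 to 5 in KO against WT organoids, and 1 to 3, 1 to 5 and 1 in KO-AKFP against KO, KO-AKF and WT organoids. The *Tgtp* sum then ranged from 3.10 to 3.98 at day 4 in the high gate, 3.32 to 4.10 in the low gate, -3.67 to -2.12 and -3.16 to -1.61 at day 6 against day 4 Lgr5-high and Lgr5-low, and -0.13 to 1.42 against WT Lgr5-high. Called members kept their direction in all 118 such values and in 200 under the other settings. The call was lost in 41 of those 200 and in many of the 118. The libraries of called members did not overlap between the compared groups, so leaving out 1 library could not have reversed their direction. Uncalled ones reversed with equal sums for *Ifi47* at day 4 in the high gate (-0.073) and *Irgm1* at day 6 against day 4 Lgr5-high (-0.031). They also reversed when 1 library was left out for *Ifi47* at day 4 in the high gate (-0.40 to 0.50), *Tgtp2* at day 6 against WT Lgr5-high (-0.40 to 1.14), *Irgm1* (-0.23 to 0.63), *Irgm2* (-0.93 to 0.16), *Gbp3* (-0.15 to 0.88) and *Gbp7* (-1.27 to 0.31) at day 6 against day 4 Lgr5-high, and *Irgm1* (-0.68 to 0.17) and *Gbp3* (-0.32 to 0.71) against day 4 Lgr5-low. Over all genes, 136 were called at day 4 in the high gate (0 to 283 under other settings) and 61 in the low gate (1 to 109). At day 3, 16 of 40 member values under the other pseudocount or equal sums moved by more than the spread of WT libraries. Fewer libraries give fewer degrees of freedom, and 2 libraries a group limit every result.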
